A study of Mus musculus with 2 samples.

Results

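The peaks described here are the EP300 binding sites of newborn mouse heart whose summits lie in the coding exons or untranslated regions (UTRs) of protein-coding genes, away from promoters. They were chosen from the authors' optimal list of peaks, which was made by the irreproducible discovery rate (IDR). A peak was taken when its summit lay on chromosomes 1 to 19, more than 1 kb from every transcription start site of a protein-coding transcript, and inside a coding or UTR interval of a protein-coding gene in GENCODE M21 on GRCm38 (mm10). Of 17169 peaks on these chromosomes, 357 met the rule, among 11430 distal peaks in all. Their summits fell in 3′ UTRs for 216 peaks (60.5%, 95% exact interval 55.2 to 65.6%), in coding sequence for 130 (36.4%, 31.4 to 41.6%) and in 5′ UTRs for 11 (3.08%, 1.55 to 5.45%). The other distal peaks lay in introns (5735) or between genes (5338).

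The assay was ChIP-seq, which immunoprecipitates crosslinked chromatin with an antibody, here to EP300, and sequences the DNA. The tissue was heart of mice of strain B6NCrl at postnatal day 0, with no treatment named. The 2 samples form 1 group and are replicates 1 and 2. Their labels share 1 biosample and 1 donor identifier, so the spread between them may be technical. The files hold peaks and no read counts, so the depth is unknown. Each peak has a deposited signal value, a height over control whose formula is not stated here. It was used to rank peaks within a list. The lists were called separately, so values of different lists are given side by side and no fold is drawn between them.

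EP300 is a histone acetyltransferase that transcription factors recruit to enhancers and promoters. Enhancers are mostly found in introns and between genes. Some lie inside exons, where the same bases are both read by transcription factors and carried into the messenger RNA, as codons or as UTR. A 3′ UTR lies at the far end of its gene and can be nearer to the next gene's promoter than to its own. ChIP-seq sees DNA, so a peak in an exon says nothing of the RNA or of which gene the site serves.

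An E-box of the form CAGCTG, a hexamer that basic helix-loop-helix factors bind, stood within 100 bp of the summit in 8 of the 10 peaks of highest signal. No other form of E-box was searched, and the name means this hexamer throughout. These 8 peaks of the 10 are shown because they held the E-box, a choice made after their values were seen. Each line gives 30 bases of GRCm38 (RefSeq), on the strand of the gene, with the E-box nearest to the summit in capitals. The first 7 lines are 3′ UTR and the last is coding sequence.

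Cox17 (chr16:38350540-38350569, plus strand): catagtagtatcCAGCTGgtttctttctct
Rassf4 (chr6:116635511-116635540, minus strand): actgtgtgaacaCAGCTGcagagtgacagg
Frmd8 (chr19:5850347-5850376, minus strand): accagcagggggCAGCTGagccctctcttt
H13 (chr2:152707791-152707820, plus strand): tgcgggggccgcCAGCTGggctggtcgctc
Fadd (chr7:144578134-144578163, minus strand): ttctgagtcattCAGCTGactgccttctgg
Uba7 (chr9:107983643-107983672, plus strand): tgcctgccccacCAGCTGctcctaaaatag
Gucy2e (chr11:69221170-69221199, minus strand): ttatgggaggcaCAGCTGgcaggccagccg
Rgs22 (chr15:36080853-36080882, minus strand): caggcttatcatCAGCTGttctaccaagaa

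The Rgs22 hexamer is centred 4 bp from the summit, the closest of the 8, and the Gucy2e hexamer 83 bp, the farthest. The windows of Clec1a and Gfod1, the remaining peaks of the leading 10, held no CAGCTG. Among all 614 distal peaks with a signal at least as high as that of the weakest of these 10, 165 held the hexamer (26.9%). When the distal exonic peaks were split by signal into 4 groups of equal size, 21 of the 89 in the top group held an E-box (23.6%), against 24.4% of the 3982 distal peaks at or above the same signal. In the group below it was 27 of 89 (30.3%), against 22.1% of all distal peaks in the same signal range, and in the next 29 of 89 (32.6%), against 18.99%. In the bottom group it was 8 of 90 (8.89%), against 14.8%. The top group includes the leading 10 and their 8 peaks with an E-box, so its share without them is lower. Over the 4 groups of distal exonic peaks the share did not rise steadily with signal. Over all distal peaks in the matching ranges it rose from 14.8 to 24.4%. These counts were made after the values were seen and were not tested.

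Among the 12 strongest peaks with a coding summit, 3 held one of the motifs described further below within 100 bp of the summit, an E-box in each: Rgs22, shown above, Cox10 and Cyren. Only the Rgs22 hexamer lay in codons. The Cox10 hexamer lay in the intron beside the exon, 69 bp from the summit, and that of Cyren, a regulator of DNA end joining, in UTR. To show ETS sites, 2 further coding peaks were chosen after their values were seen. Dclk2, a doublecortin-like kinase, holds the reverse complement of ACAGGAAG, and Psmc2, an ATPase subunit of the proteasome, the reverse complement of CCGGAAG. Both ETS sites lie in coding sequence. The Cyren summit lies in an exon of the overlapping gene Tmem140 as well.

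Cox10 (chr11:64073500-64073529, minus strand): gaagccatcgttCAGCTGctctctgcctct
Cyren (chr6:34874701-34874730, minus strand): tttgtgccgagaCAGCTGtttcttctgctc
Dclk2 (chr3:86793783-86793812, minus strand): tgtgtagggctCTTCCTGTatacactgtag
Psmc2 (chr5:21786711-21786740, plus strand): ggcgcggagctaCTTCCGGtggggaagaga

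The strongest 9 of these peaks all lay in 3′ UTRs. The peak in the last exon of Cox17, a copper chaperone for cytochrome c oxidase, had a signal of 153.7 and stood 80th among the 17169 peaks. Its nearest peak had a signal of 78.0 in replicate 1 and 74.98 in replicate 2, with summits 3 and 24 bp away. The Rassf4 peak, in a Ras association domain gene, had 120.2 in the optimal list, 59.0 in replicate 1 and 62.9 in replicate 2. The Frmd8 peak, in a gene for a partner of the iRhom proteins, had 112.8, with 65.98 and 46.01 in the replicates. Both replicates thus held strong peaks at these 3 sites.

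H13, which encodes signal peptide peptidase, had a signal of 102.1 (63.2 in replicate 1 and 37.7 in replicate 2). Fadd, the adaptor of death receptors, had 92.7 (39.1 and 51.3), and Uba7, the activating enzyme for ISG15, had 90.7 (56.8 and 42.2). The Uba7 summit lay 2011 bp from the nearest protein-coding start site, which belongs to Inka1, and 334 bp from the annotated start of Gm20661. It is one of 11 summits, and the one among the leading 10, that lie in an exon of no covering transcript of protein-coding type, but of another transcript of the gene. Clec1a, a C-type lectin-like receptor, had 84.6 (42.5 and 42.1). Gucy2e, a guanylate cyclase of photoreceptors, had 80.4 (41.1 and 38.6), and Gfod1, an oxidoreductase domain gene, had 78.6 (33.9 and 39.7). All 9 overlapped a peak of the authors' conservative list, and in both replicates the nearest summit lay in an exon as well.

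The strongest coding peak stood in exon 14 of 28 of Rgs22, a regulator of G-protein signalling, 47 bp from the edge of a 102 bp exon. Its signal was 78.3 in the optimal list, 44.3 in replicate 1 and 33.7 in replicate 2. Nrip1, a corepressor of nuclear receptors (also called RIP140) whose coding sequence lies in 1 large exon, had 74.5 (37.0 and 36.6), with the summit 1009 bp from the exon edge. Mfsd4a, a transporter of the major facilitator family, had 68.2 (44.7 and 18.1). Cox10, which makes the haem of cytochrome c oxidase, had 62.7 (26.5 and 33.9), and Heatr5b, a HEAT repeat gene, had 58.1 (14.5 and 35.4). Each of these 5 had a summit in both replicates and overlapped a conservative peak.

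Of the 11 peaks in 5′ UTRs, the 5 strongest lay in Tmbim1, A930004D18Rik, Msra, Brd2 and Nup160. Tmbim1, a membrane protein of the BAX inhibitor family, had a signal of 67.8 (27.2 in replicate 1 and 43.3 in replicate 2). A930004D18Rik had 64.2 (39.1 and 15.2). Msra, a methionine sulphoxide reductase, had 43.3 (20.3 and 18.5), Brd2, a bromodomain protein that reads acetylated histones, had 39.8 (6.39 and 25.2), and Nup160, of the nuclear pore, had 39.4 (28.3 and 11.5). Some of these are close to start sites that the rule did not count. An annotated start of any transcript type stood 122 bp from the Tmbim1 summit, 39 bp from that of Msra and 18 bp from that of Brd2.

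**Figure D1:**
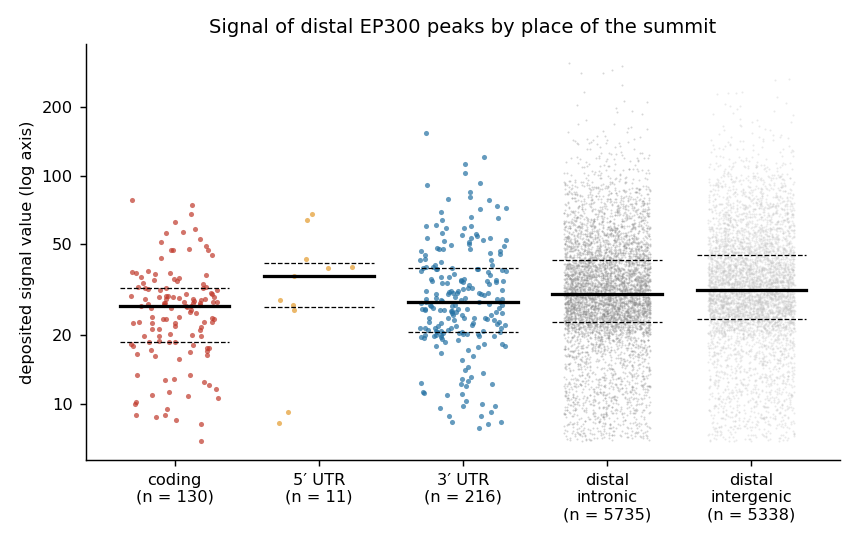
Deposited signal value (vertical log axis) of every distal peak of the optimal list, by the place of its summit. Points are peaks, thick lines medians and dashed lines quartiles; the medians are 26.8 for coding, 36.6 for 5′ UTR, 28.0 for 3′ UTR, 30.3 for intronic and 31.6 for intergenic peaks, and the strongest exonic peak (153.7, in Cox17) lies below the intronic maximum of 310.9.

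Set against the bases available, 3′ UTR peaks were about as dense as intronic ones and coding peaks sparser. Distal 3′ UTR held 6.91 summits per megabase and distal coding sequence 4.59, against 6.48 in introns and 3.84 between genes. Distal 5′ UTR held 14.8, on 11 peaks in 0.742 Mb. All distal exonic bases together had 5.92 summits per megabase: they are 2.58% of distal bases and hold 3.12% of distal summits. These densities are descriptions of 1 list with no test, and differences in how well reads map to each class were not tested.

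The rule sits on a steep slope, since 2320 summits of the list lay in exons and 1963 of them were within 1 kb of a start site. Just inside the limit were the peaks of Arhgef17, a guanine nucleotide exchange factor (coding, 1005 bp, signal 16.4), and St6galnac4, a sialyltransferase (3′ UTR, 1031 bp, 22.5). Just outside were those of Gpr146, an orphan receptor (976 bp, 56.3), and Mical1, an actin oxidase (970 bp, 39.1). Counting start sites of every annotated transcript, 62 of the 357 (17.4%) lay within 1 kb of one. That held for 39 of the 130 coding peaks and for 18 of the 216 3′ UTR peaks (8.33%). Base composition differed along the same line: the observed over expected CpG ratio of the 200 bp window exceeded 0.6 in 33 coding peaks (25.4%), 7 of the 11 5′ UTR peaks and 19 3′ UTR peaks (8.80%), against 4.29% of distal intronic, 9.89% of distal intergenic and 71.9% of promoter peaks. The median GC content was 56.0% in coding and 52.5% in 3′ UTR peaks, against 50% in intronic and in intergenic ones.

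Coding and 3′ UTR peaks also differed in how firmly their summits placed them in an exon. Coding summits lay a median of 57.5 bp from the edge of their exon and 3′ UTR summits 510.5 bp. The exons themselves had a median length of 250 bp for coding and 2392 bp for 3′ UTR peaks. The measures given here depend on exon length, and its part in the differences was not tested. The whole peak interval was exonic for 32 of the 130 coding peaks (24.6%) and for 176 of the 216 3′ UTR peaks (81.5%). A replicate call was counted when its summit lay closer than the distance from the summit of a full-width peak to its edge. In both replicates the nearest such summit was exonic too for 263 of the 357 (73.7%, exact interval 68.8 to 78.2%). This was so for 76 coding peaks (58.5%, 49.5 to 67.0%) and 179 3′ UTR peaks (82.9%, 77.2 to 87.6%). A peak without a call in both replicates counts here as not exonic. Both calls were present for 300 of the 357, for 107 of the 130 coding peaks and for 184 of the 216 3′ UTR peaks. The shares thus mix missing calls with summits outside the exon. Corin, the heart protease that activates atrial natriuretic peptide, is an example chosen after its values were seen: its coding peak (signal 56.6) lay 3 bp from the exon edge, and the replicate summits, 4 and 0 bp away, did not both fall in the exon.

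Most of these peaks had a call in each replicate list, though often a weak one. Such a peak stood in the replicate 1 list for 342 and in the replicate 2 list for 313, and 300 (84.0%) had one in both, against 89.5% of intronic, 90.2% of intergenic and 86.9% of all peaks of the optimal list, with no test. The replicate lists hold 300000 peaks each, and 88 of the 357 had another distal exonic peak within 1 peak width, so neighbouring peaks sometimes share a replicate call. Over the 300, the median signal was 16.6 in replicate 1 and 13.5 in replicate 2, and Spearman's rank correlation between them was 0.36 as a description over peaks that share both libraries. The 184 3′ UTR peaks with both calls had a rank correlation of 0.44 and the 107 coding peaks 0.24.

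**Figure D2:**
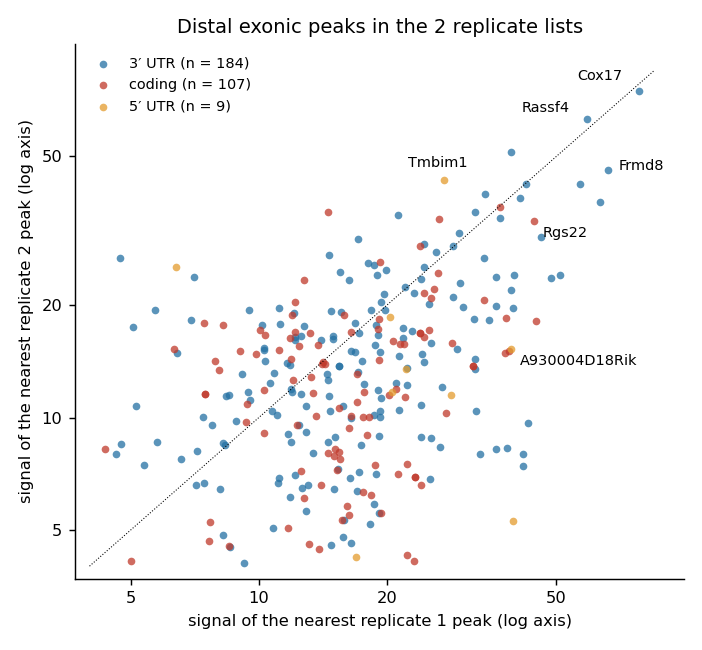
Signal of the nearest replicate 1 peak (horizontal log axis) and the nearest replicate 2 peak (vertical log axis) for the 300 distal exonic peaks with a nearby call in both lists; colours mark coding, 5′ UTR and 3′ UTR and the dotted line is equality. Cox17, Rassf4 and Frmd8 are high in both, and the cloud below a signal of 20 is wide.

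The next comparison asked whether distal exonic peaks are as strong and as repeatable as other distal peaks. They were lower on all 4 measures of strength and repeatability, against intronic and against intergenic peaks, by two-sided Fisher's exact tests with Benjamini-Hochberg adjustment over 10 tests. Peaks are units of 1 pooled list and not animals, so these p-values describe this list. A signal above the list median was reached by 133 of 357 (37.3%), against 48.9% of intronic peaks (odds ratio 0.621, exact adjusted p = 3.9e-05) and 52.1% of intergenic peaks (odds ratio 0.547, adjusted p = 4.1e-07); over all peaks it is 50% by construction. A deposited −log10 q of at least 2 was reached by 167 (46.8%), against 56.5% of intronic peaks (odds ratio 0.677, exact adjusted p = 0.00061) and 60.3% of intergenic peaks (odds ratio 0.578, adjusted p = 1.7e-06), with 57.7% over all peaks. 

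A summit within 100 bp among the 17372 leading peaks of each replicate list was found for 111 distal exonic peaks (31.1%), against 42.1% of intronic peaks (odds ratio 0.621, exact adjusted p = 6.6e-05) and 45.6% of intergenic peaks (odds ratio 0.539, adjusted p = 4.1e-07). Over all peaks of the list it was 40.9%. An overlap with a peak of the conservative list was found for 231 (64.7%), against 73.1% of intronic peaks (odds ratio 0.674, exact adjusted p = 0.00093) and 76.8% of intergenic peaks (odds ratio 0.552, adjusted p = 1.7e-06), with 74.0% over all peaks. These measures move with signal. Of the 4 signal groups, the bottom one had a summit in both replicates for 0 of 90 distal exonic peaks and the top one for 74 of 89. Among peaks above the list median alone, 95 of 133 distal exonic peaks (71.4%) had a summit in both replicates, against 75.9% of intronic peaks (odds ratio 0.795, exact adjusted p = 0.51), and 91.0% overlapped a conservative peak, against 92.8% (odds ratio 0.787, adjusted p = 0.60).

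Of the coding peaks alone, 37 of 130 (28.5%) exceeded the median signal (odds ratio against intronic peaks 0.416, exact adjusted p = 1.1e-05). Of the 3′ UTR peaks, 90 of 216 (41.7%) did so (odds ratio 0.747, exact adjusted p = 0.054). Tested directly, coding against 3′ UTR peaks gave an odds ratio of 0.557 for signal (exact adjusted p = 0.078 over 5 tests), so a difference between them was not established. In the list of replicate 2 alone (without replicate 1), signal was no longer called different from intronic peaks (odds ratio 0.881, exact adjusted p = 0.25), nor was the conservative overlap (0.875, adjusted p = 0.25) or −log10 q (0.794, adjusted p = 0.17).

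Another summit of the list lay within 10 kb of 238 distal exonic peaks (66.7%). This was more often than for intergenic peaks (59.0%, odds ratio 1.39, exact adjusted p = 0.0050) and was not called different from intronic peaks (62.7%, odds ratio 1.19, adjusted p = 0.14), with 62.1% over all peaks. It was called higher than for intronic peaks in the lists of replicate 1 alone (without replicate 2; odds ratio 1.53, exact adjusted p = 0.00028) and of replicate 2 alone (without replicate 1; 1.26, adjusted p = 0.0499), and among peaks above the median signal the odds ratio was 0.967 (adjusted p = 0.86).

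**Figure D3:**
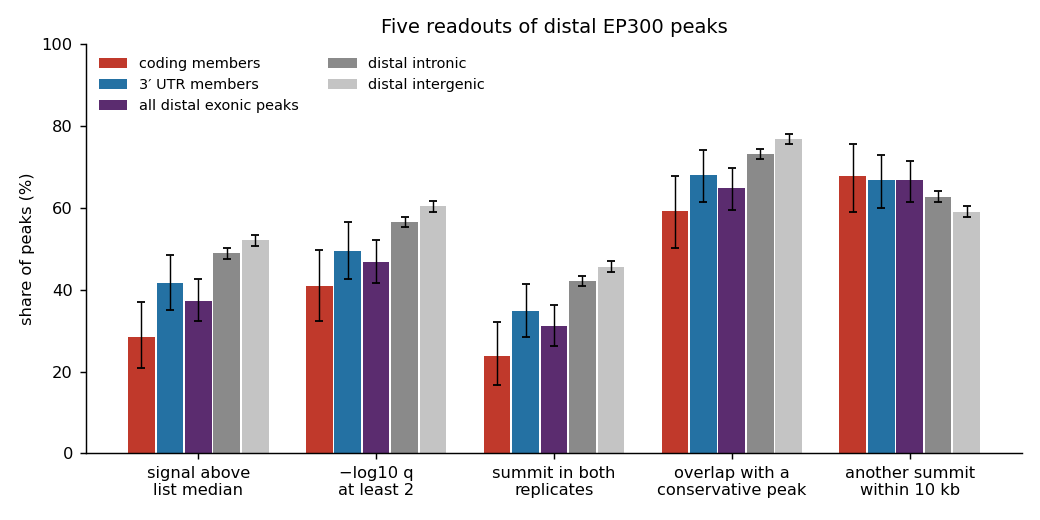
Share of peaks (vertical axis, percent) that met each of 5 measures, for coding, 3′ UTR and all distal exonic peaks and for distal intronic and intergenic peaks; error bars are 95% exact binomial intervals over peaks. On the 4 measures at the left all distal exonic peaks (37.3, 46.8, 31.1 and 64.7%) lie under the intronic and intergenic shares.

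The 357 peaks were spread over 303 genes, of which 252 held 1, 48 held 2 and 3 held 3. The host gene also had the nearest protein-coding start site for 105 of the 130 coding peaks (80.8%) but for 116 of the 216 3′ UTR peaks (53.7%), so nearly as many 3′ UTR summits were closer to a neighbouring gene's start. In 168 genes the exonic peaks were the only distal peaks in the gene body.

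The genes with 3 were Slc4a3, Pln and Myh6. With summits up to 1 peak width apart merged into their strongest peak, each of these genes held 2. Slc4a3, an anion exchanger of heart and brain, had 3′ UTR peaks with signals of 39.9, 26.2 and 21.9. The strongest of them had 19.4 in replicate 1 and 20.3 in replicate 2. Pln encodes phospholamban, the inhibitor of the calcium pump of the sarcoplasmic reticulum; it had a coding peak of 27.8 (13.4 in replicate 1 and 11.6 in replicate 2) and 3′ UTR peaks of 25.02 (11.2 and 17.8) and 20.1 (21.6 in replicate 1 and no call in replicate 2). Each Pln summit lay within 1 kb of the start of Gm47644, a gene outside the rule's protein-coding start sites. Myh6, the α heavy chain of cardiac myosin, had coding peaks of 18.8, 18.2 and 17.1, in exons 3, 9 and 27 of 39. They lay among the weaker peaks of the gene: its strongest promoter and intronic peaks each reached 76.1, and 7 of its 21 intronic peaks were weaker than all 3. The Myh6 peak of 18.8 had no call in replicate 1 and 21.4 in replicate 2, and none of the 3 overlapped a conservative peak or reached a −log10 q of 2. In Slc4a3 a single one reached it, and in Pln none did.

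**Figure D4:**
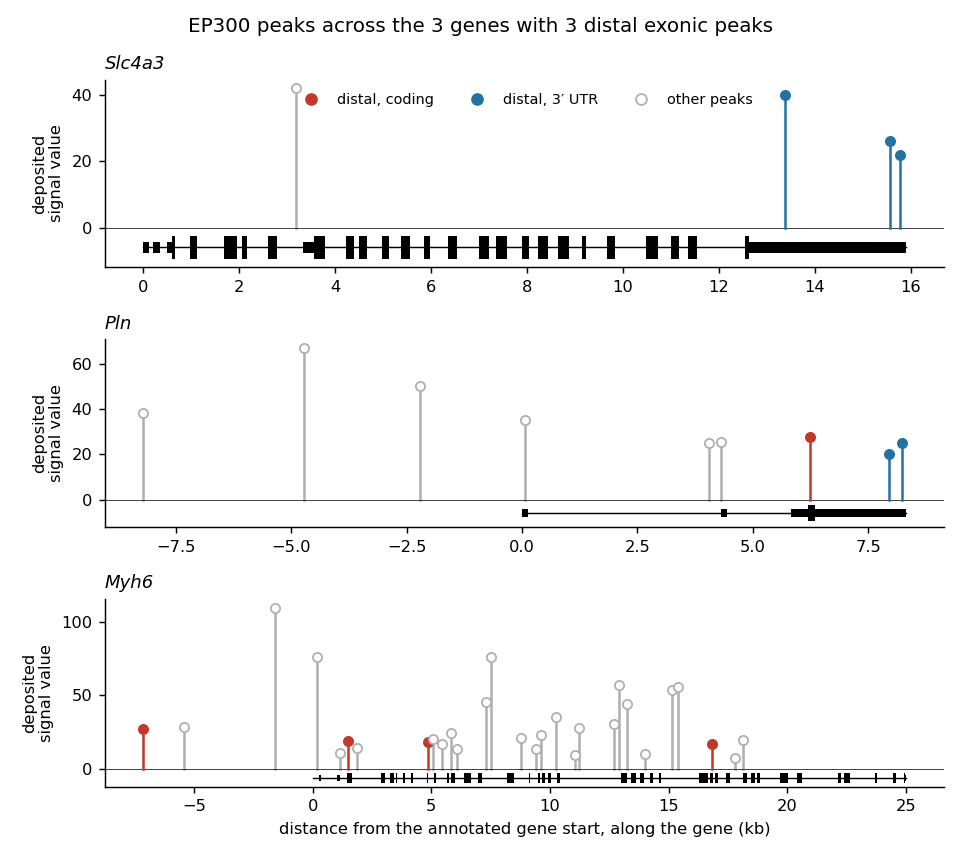
Deposited signal value (vertical axis) of the peaks of the optimal list across Slc4a3, Pln and Myh6, by distance from the annotated gene start along the gene (horizontal axis, kb); black boxes are exons, thick for coding and thin for UTR, and filled points are distal exonic peaks. The exonic peaks of Slc4a3 and Pln lie at the far end of the gene, the Myh6 ones (17.1 to 18.8) are low among many intronic peaks, and the filled point 7.1 kb before Myh6 belongs to the neighbouring Myh7.

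Sarcomere genes were the listed group with most hosts. Of the 35 genes listed for sarcomere or Z-disc, 8 (22.9%) held 11 of the 357 peaks, against 303 of 20780 protein-coding genes with a unique name (1.46%). The same genes held 101 distal peaks in all, so 10.9% of these were exonic, against 5.62% over all genes. Among them were the 3 in Myh6 and 1 each in Myl2, Myh7, Myl3, Actc1, Myh7b and Synpo2l. The strongest was in the 3′ UTR of Myl2, the ventricular regulatory light chain (45.2, with 24.5 in replicate 1 and 25.4 in replicate 2). Myh7, the β myosin heavy chain, had a coding peak of 27.5 (14.3 and 13.9). That summit lay 1 bp from an exon edge. The light chain gene Myl3 had 26.2 (11.7 and 14.0) in its 3′ UTR, and Actc1, cardiac α actin, had 24.1 in coding sequence (22.8 in replicate 1 and no call in replicate 2). The median signal of the 11 was 19.98, under the 27.4 of all distal exonic peaks. Myosin and actin genes have closely similar copies, and how the authors treated reads that map to several places is not given in the sources used here, so peaks in their exons are uncertain.

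Counting by distance instead of by host, 21 distal exonic peaks (5.88%) lay within 50 kb of the start of a listed sarcomere gene, against 115 of the 5735 intronic peaks (2.01%). In 10 of the 21 the exon belonged to a gene outside the list. Examples chosen after their values were seen are the peaks in Opn4 near Ldb3 (47.5), Myl12a near Myom1 (46.6) and Madd near Mybpc3 (38.4). Among the other lists the share was higher than for intronic peaks for endothelium (1.68 against 1.06%), energy (0.84 against 0.65%) and macrophages (0.56 against 0.09%). It was lower for the rest, such as calcium handling (0.84 against 1.19%). Distal exonic peaks lay nearer to protein-coding start sites in general, at a median of 6702 bp, against 17916 bp for intronic peaks. These are counts with no test, and distance is not a measured link.

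Other listed groups had at most 3 hosts each, so their shares rest on few peaks. In those with a host, 3.57 to 10.7% of genes held such a peak, against 1.46% of all genes. Of the distal peaks in these genes, 9.09% were exonic for energy and 7.69% for macrophages and leukocytes, against 5.62% over all genes. The share was 5.17% for endothelium, 4.26% for glucocorticoid and clock, 4.11% for calcium handling and 1.75% for cardiac transcription factors. None was tested. For endothelium and endocardium 3 of 28 genes held 1 peak each: Kdr, the main receptor for VEGF (3′ UTR, 58.9, with 33.8 in replicate 1 and 26.8 in replicate 2), Ets1, an ETS transcription factor (coding, 28.3), and Plvap, of fenestral diaphragms (3′ UTR, 22.9, with no call in replicate 2). Of 26 cardiac transcription factor genes, Zfpm2 (FOG2, a GATA cofactor) alone had one, a weak 5′ UTR peak of 8.26. Pln was the one host of 28 genes for calcium handling, channels and junctions. Energy genes had 2 of 29, Txnip, an inhibitor of thioredoxin (47.0 in the 3′ UTR and 29.5 in coding sequence), and Ech1, of fatty acid oxidation (8.53).

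The 3′ UTR peak of Txnip had 36.0 in replicate 1 and 8.26 in replicate 2. For glucocorticoid and clock genes 2 of 24 were hosts, Nr1d1, the clock repressor REV-ERBα (27.1), and Fkbp5, a glucocorticoid target (9.53). Of 15 macrophage and leukocyte genes Spi1, which encodes PU.1, had a coding peak of 24.1, called in replicate 1 alone, whose nearest start site was that of Mybpc3, 2877 bp away. No gene of the lists for fibroblasts and matrix (24), basement membrane (15), smooth muscle and pericytes (16), neurons (19) or liver (20) held a distal exonic peak. At the 1.46% of all genes with one, such lists would mostly have none, so by genes 0 is near the background. By peaks it is lower. Their genes held from 1 to 52 distal peaks of any kind per list, the 52 in basement membrane genes. Over the 5 lists that is 89 distal peaks with 0 exonic, against 5.62% exonic over all genes, with no test. As a check of the tissue label, gene bodies with 10 kb upstream held 29 peaks for Myh6, 10 for Tnnt2, 8 for Actc1, 4 for Ryr2 and 1 for Nppa. Endothelial markers had 1 to 8 each (Kdr, Tie1, Cdh5, Fli1 and Egfl7). The fibroblast markers Col1a1 and Dcn had 1 each, and Pdgfra and Tcf21 had 0, as did the 3 smooth muscle markers, the 3 macrophage markers and the erythroid gene Hbb-bs. In whole heart, fewer cells of a type and weaker binding per cell cannot be told apart.

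Of 20 motifs searched on both strands, 3 were more frequent in the 200 bp around the summit than in 200 bp centred 1 kb downstream (toward higher coordinates) of the same peaks, by an exact two-sided sign test on peaks where the windows differed, adjusted over the 20. The E-box CAGCTG stood at 85 of 357 summits (23.8%, exact interval 19.5 to 28.6%), against 12.6% of the downstream windows (adjusted p = 0.0013). Over all distal peaks its share was 20.9% at the summit and 10.1% downstream, so the gain was not particular to distal exonic peaks. It was found in 31 of 130 coding and 52 of 216 3′ UTR peaks. ACAGGAAG, listed here for ETS factors of endothelium and blood, stood at 27 summits (7.56%), against 6 downstream windows (1.68%, exact adjusted p = 0.0013). Over all distal peaks it had 6.74% at the summit and 2.23% downstream, so this gain was not particular to them either. CCGGAAG, a form common in promoters and listed here for broadly expressed ETS factors, stood at 20 summits (5.602%), against 5 downstream windows (1.401%, exact adjusted p = 0.027). Over all distal peaks it had 2.84% at the summit and 1.09% downstream. The ETS forms end alike but cannot match on the same GGAAG. A match to either form does not tell which ETS factors bind.

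The E-box kept its call in 11 of 13 alternative settings, ACAGGAAG in 8 and CCGGAAG in 5. The E-box missed it in the conservative list (exact adjusted p = 0.051) and among peaks with a −log10 q of at least 2 (adjusted p = 0.064). In the peaks of replicate 2 alone (without replicate 1) ACAGGAAG had a ratio of summit to downstream windows of 1.91 (exact adjusted p = 0.55), against 4.50 in the optimal list. In those of replicate 1 alone (without replicate 2) the ratio of CCGGAAG was 2.88 (exact adjusted p = 0.071), against 4 in the optimal list. The median GC content was 54.0% at the summit and 50.5% downstream, and 168 of the 357 downstream windows were centred in an exon; the part of base composition in these differences was not tested.

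The other 17 motifs did not pass. GGAATG, bound by the TEAD factors of the Hippo pathway, stood at 14.3% of summits and 9.80% of downstream windows (exact adjusted p = 0.42). AGATAAG, bound by GATA factors, stood at 3.92 and 4.48% (exact adjusted p = 1.0), and the MEF2 motif at 1.68 and 0.84% (adjusted p = 0.90), with no match in the 130 coding windows. The GATA direction depended on the setting: with the window 1 kb upstream instead, it stood at 14 summits and 5 flanking windows (exact adjusted p = 0.20), in the conservative list at 18 and 7 (adjusted p = 0.22) and without replicate 2 at 18 and 8 (adjusted p = 0.27). AP-1 stood at 22 summits, against 24 windows downstream and 11 upstream (exact adjusted p = 0.20 upstream). Also searched were TGANTCA (AP-1), TGACAG (MEIS), TNAAGTG (NKX2), ACAATNG (SOX), TGTTTAC (forkhead), GGGCGGG (KLF and SP), TGACGTCA (CREB), GGTGTGA (T-box), TTCCNGGAA (STAT), AAGGTCA (ERR), CAAAGTCCA (HNF4, as a contrast) and, by name, the CTCF, steroid receptor and CArG box motifs. Over all distal peaks the shares at the summit were 17.8% for TEAD, 7.104% for GATA, 3.18% for MEF2 and 9.17% for AP-1. Their downstream shares were 10.6, 2.66, 0.37 and 5.94% in the same order. Each of these summit shares was higher than at distal exonic summits, where AP-1 had 6.16%. Of the motifs that did not pass, only GGGCGGG and CTCF had a higher share at distal exonic summits than over all distal peaks. These differences were not tested. A match is a string in the window and not a bound site.

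**Figure D5:**
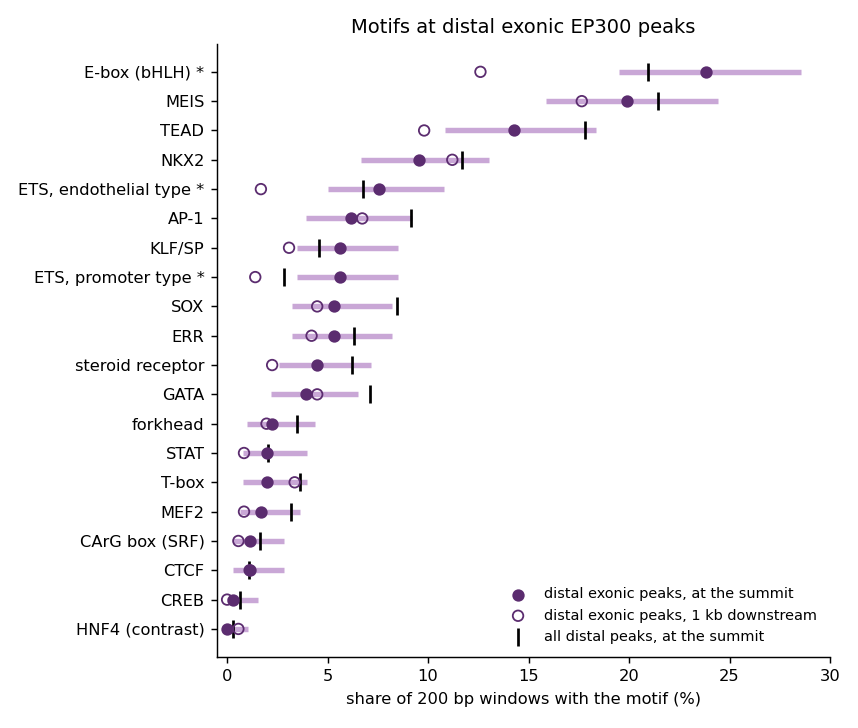
Share of 200 bp windows with each of 20 motifs (horizontal axis, percent) at distal exonic summits (filled, with 95% exact interval), 1 kb downstream of them (open) and at all distal summits (black mark); an asterisk marks the 3 motifs with an adjusted p under 0.05. The E-box reaches 23.8% at the summits, against 12.6% downstream, and the GATA (3.92%) and AP-1 (6.16%) shares lie near their downstream values (4.48 and 6.72%), which does not hold for the window upstream (5 and 11 matches, against 14 and 22 at the summits).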

How the data were processed

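The data are ChIP-seq peak lists of EP300 from 2 replicates. Per the file headers, the authors called peaks per replicate and on pooled reads, and took the optimal and conservative lists by IDR. For aligner, caller and IDR cut-off the sources used here give no names. The deposited signal value, the authors' −log10 q and the deposited score (a scaled IDR) were used as given. Summits (start plus offset) were placed on GENCODE M21, coding sequence before 5′ UTR before 3′ UTR. No filter was applied beyond chromosomes 1 to 19. Intervals are exact (Clopper-Pearson) and cover counting error only, and the unknown depth limits precision. A replicate's value is that of its nearest peak within reach of the summit.

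Fisher's exact and sign tests used SciPy 1.17.1, with Python 3.11.15, numpy 2.4.6, pandas 2.3.3, pysam 0.24.0 and matplotlib 3.10.9, and were tested on simulated data. Sequences came from RefSeq GRCm38. The members and lists were chosen with earlier results of these data known. Named are the hosts of the 10 strongest peaks, the 5 strongest per exon class, genes with 3 or more, up to 3 hosts per gene list and the 2 peaks nearest each side of the limit. Others, such as Corin and the further sarcomere hosts, were chosen after their values were seen. The coding or 3′ UTR peaks alone, the peaks above the median and the test between coding and 3′ UTR peaks were added after seeing the data. So were the E-box sequences of the 10 strongest peaks and the E-box counts by signal. Some items are not reported here.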

Additional observations from a re-analysis of the deposited data

How the results depend on the processing

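No paired analysis was possible because both replicates belong to 1 group. The number of distal exonic peaks stayed between 289 and 406 in the other settings, replicates alone included (364 and 387), but was 167 with a −log10 q of at least 2. The coding share was 30.8% with start sites of all transcripts, and 34.9 to 37.6% in single replicates. Both replicate summits were exonic for 87.4% at that q, 78.9% of merged sites and 58.3% with summits within 100 bp. Peaks without a call in both replicates again count as not exonic.

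Against intronic peaks, odds ratios of signal, replicate summits and conservative overlap at that q were 0.727, 0.693 and 0.672 and missed the threshold, as did those of 3′ UTR peaks alone (signal 0.747, q 0.756, replicate summits 0.732, conservative overlap 0.783) and of above-median peaks (replicate summits 0.795, conservative overlap 0.787). Against intergenic peaks the same was true at that q (0.690, 0.631 and 0.587) and above the median (0.718 and 0.665). In single replicates the ratios against intronic peaks ran from 0.698 to 0.881 for signal, 0.789 to 0.794 for q and 0.685 to 0.875 for conservative overlap. Replicate summits could not be counted in single replicates, nor conservative overlap in the conservative list, nor q among peaks chosen by q. These alternatives also hold fewer or other peaks, and the cause was not tested.

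The ratio for another summit within 10 kb against intronic peaks passed in the conservative list (1.46), in single replicates (1.26 to 1.53) and with summits over 1 peak width away (1.28), and turned to 0.967 among above-median peaks. Against intergenic peaks it missed the threshold beyond 2 kb (1.26), at the stricter q (1.22), in coding (1.46) or 3′ UTR (1.39) peaks alone and above the median (1.13). By the exact sign test 1 motif passed in the conservative list, CCGGAAG (adjusted p = 0.018), where the E-box missed the threshold (adjusted p = 0.051). With 100 bp windows and in coding peaks alone the 1 motif that passed was the E-box. At the stricter q 0 passed (3 at an unadjusted p under 0.05: the E-box, TEAD and ACAGGAAG). Under start sites of all transcripts Pln held 0 distal exonic peaks, and in the conservative list Myh6 held 0. The files hold no read counts, so what depth limits could not be measured.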
